A study of Gallus gallus with 50 samples.

Results

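The intestinal identity transcription factors examined were CDX1, CDX2, GATA4, GATA5, GATA6, HNF4A and BCL6. The members were found by symbol in the platform annotation. They had 13 probe sets among the 38382 tested and were 7 of the 13009 genes that a probe set names alone. All 7 genes had at least 1 probe set and no filter on low signal removed any. Where a gene had several, they are numbered from the brightest. By NCBI gene ID the members are CDX1 (395397), CDX2 (374205, 3 probe sets), GATA4 (396392), GATA5 (396391, 2 probe sets), GATA6 (396390), HNF4A (419198, 3 probe sets) and BCL6 (424912, 2 probe sets). The array IDs of CDX2 2, HNF4A 2 and BCL6 2 mark probes that can match more than 1 transcript.

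CDX1 and CDX2 are homeobox proteins that switch on intestinal genes, and loss of CDX2 in mouse lets gut epithelium take on features of the stomach or oesophagus. GATA4, GATA5 and GATA6 are zinc finger proteins of endoderm, and in mouse GATA4 is made in the upper small intestine and not in the terminal ileum, where its absence allows bile acid transport genes to be used. HNF4A is a nuclear receptor that drives genes of lipid and nutrient handling in mature enterocytes. BCL6 is a zinc finger repressor best known from germinal centre B cells and, in mouse, from the control of lipid genes in liver.

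RNA came from scraped mucosa of the jejunum and the ileum of male Cobb 500 broilers on day 10, and each of 25 birds gave an array of both segments. The feeds were LPC low (purified lysophosphatidylcholine at 9.5 g/T, given as 500 g/T of LPC plus carrier), LPC high (19 g/T of LPC, given as 1000 g/T), lysolecithin low (250 g/T of lysolecithin, holding 9.5 g/T of LPC), lysolecithin high (500 g/T, holding 19 g/T of LPC) and a control feed with no supplement, with 5 birds on each. The array labels name the lysolecithin feeds as lysoforte 500 and lysoforte 1000, after a product that is lysolecithin and carrier in equal weights, and these were read as lysolecithin low and lysolecithin high. The labels do not say how pens map to feeds, so pen and feed cannot be told apart, and p-values cover the spread between birds. Signals are log2 values made with RMA. This method gives the single probes of all arrays the same distribution before they are joined into probe sets, so a shift shared by most genes would not show. The probe set values still differed a little, with array medians of 4.57 to 4.70. In scrapings, fewer cells of a type and less RNA per cell cannot be told apart.

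Of 50 arrays, 4 carried the genes of the other segment. A segment score, the mean of 15 jejunal genes minus that of 15 ileal genes chosen on the other birds with the members left out, had a median of 1.82 in the jejunum and -5.42 in the ileum. It was -5.05 in control replicate 2 and -5.99 in LPC low replicate 4, both labelled jejunum, and 3.51 in LPC low replicate 1 and 3.35 in lysolecithin high replicate 4, both labelled ileum. The pair of LPC low replicate 4 also did not match as 1 bird. These 5 arrays of 4 birds are called arrays in doubt. Results below include them unless stated otherwise, and only some results are also given without them. With these arrays included, the jejunal score differed between feeds. It ran from -5.99 to 1.57 on LPC low, 1.12 to 4.80 on LPC high and 0.75 to 4.73 on lysolecithin low. On lysolecithin high it ran from 1.82 to 5.41 and on control feed from -5.05 to 5.01. Jejunal control replicate 1 at -1.27 and LPC low replicate 1 at -1.40 were not in doubt. Feed and score cannot be fully told apart there, and the score's part in feed differences was not tested. An index of 5′ minus 3′ signal on control transcripts, which falls when RNA is shorter or labelled less fully, also differed between feeds. In the jejunum it averaged -0.72 ± 0.27 on LPC low, -0.46 ± 0.10 on LPC high, -0.66 ± 0.16 on lysolecithin low, -0.64 ± 0.29 on lysolecithin high and -0.97 ± 0.14 on control feed (SD, n = 5 each). In the ileum the averages were -0.70 ± 0.30, -0.56 ± 0.08, -0.70 ± 0.14 and -0.55 ± 0.19 on the same 4 supplemented feeds and -0.80 ± 0.14 on control feed. On LPC high the index did not overlap with control. It ran from -0.60 to -0.35 against -1.17 to -0.82 in the jejunum, and from -0.63 to -0.44 against -1.04 to -0.72 in the ileum. LPC high and the index thus cannot be fully told apart.

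GATA4 separated the segments most widely among the members. Its signal averaged 5.85 ± 0.82 in jejunum and 4.09 ± 0.53 in ileum (SD, n = 25 each), a difference of 1.76 ± 0.17 (SE), and it was higher in the jejunum of 24 of 25 birds (limma with the bird as a block, adjusted p = 3.69e-07). Jejunal values ran from 3.97 to 7.47 with a median of 5.85, and ileal values from 3.47 to 5.72 with a median of 3.97. The 2 lowest jejunal values, 3.97 and 4.02, and the 2 highest ileal values, 5.60 and 5.72, were those of the 4 arrays with the other segment's score. Without the arrays in doubt the segments did not overlap, at 5.21 to 7.47 in 23 jejunal arrays and 3.47 to 4.58 in 22 ileal arrays, when 0.185% of all probe sets were higher in jejunum with no overlap. The difference over the 21 birds not in doubt was 2.05 ± 0.13, and the jejunum was higher in all 21. Most arrays in doubt were set apart by other genes that differ between the segments on these same arrays. The clearer separation without them is thus not independent evidence. Over all 25 birds, the difference within the 3 batches was 1.36, 2.03 and 1.86. By feed, the jejunum minus ileum difference averaged 1.25 ± 1.30 on LPC low, 2.19 ± 0.83 on LPC high, 1.89 ± 0.64 on lysolecithin low, 1.96 ± 1.01 on lysolecithin high and 1.52 ± 0.79 on control feed (SD, n = 5 birds each). The averages were lowest on LPC low and control feed, which held 3 of the 4 birds in doubt, and lysolecithin high held the other. The part of these birds in the averages by feed was not tested. Most ileal values lay below the median signal of their array, which was 4.57 to 4.70, and whether ileal GATA4 stood above background was not tested, so no fold is given.

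**Figure D1:**
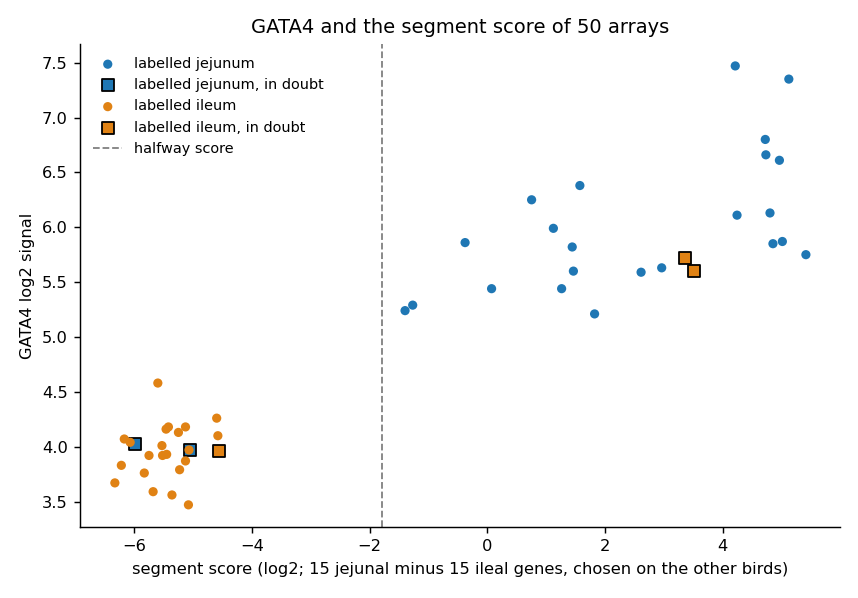
GATA4 log2 signal (vertical axis) against the segment score (horizontal axis, log2) of 50 arrays, jejunum in blue and ileum in orange, with squares for the 5 arrays in doubt and a dashed line halfway between the segments at -1.8. The 2 ileum arrays with high scores had GATA4 at 5.60 and 5.72, and the 2 jejunum arrays with low scores had 3.97 and 4.02.

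GATA5 and GATA6 were also higher in jejunum, by smaller amounts. GATA5 1, the brighter of its 2 probe sets, averaged 11.60 ± 0.29 in jejunum and 11.34 ± 0.29 in ileum, with a difference of 0.27 ± 0.06 (adjusted p = 0.0026). GATA5 2 differed by 0.38 ± 0.08 (adjusted p = 0.000658), and each was higher in the jejunum of 21 of 25 birds. GATA6 averaged 10.12 ± 0.26 in jejunum and 9.88 ± 0.22 in ileum, a difference of 0.24 ± 0.07 (adjusted p = 0.00948), in the same direction in 20 birds. GATA5 1 ran from 10.95 to 12.08 in jejunum and 10.78 to 12.01 in ileum, and GATA6 from 9.47 to 10.68 and 9.49 to 10.24, so the segments overlapped over most of their range.

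HNF4A rose in jejunum on 2 of its 3 probe sets. HNF4A 1, the brightest, averaged 10.06 ± 0.32 in jejunum and 9.74 ± 0.38 in ileum, with a difference of 0.31 ± 0.07 in 21 of 25 birds (adjusted p = 0.00116). HNF4A 3 differed by 0.22 ± 0.07 (adjusted p = 0.0307), and its call was lost without the birds in doubt at 0.19 ± 0.08 (adjusted p = 0.106). HNF4A 2 differed by 0.01 ± 0.11 (adjusted p = 0.956). Over 50 arrays HNF4A 1 correlated with HNF4A 2 at r = 0.48 and with HNF4A 3 at r = 0.74.

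CDX1, 1 of 3 CDX2 probe sets and both BCL6 probe sets were lower in jejunum. CDX1 averaged 10.16 ± 0.28 in jejunum and 10.41 ± 0.20 in ileum, a difference of -0.25 ± 0.05 with the jejunum lower in 22 of 25 birds (adjusted p = 0.000336). CDX2 3, the dimmest CDX2 probe set, differed by -0.19 ± 0.05 (adjusted p = 0.00892), while CDX2 1 and CDX2 2 had differences of -0.06 ± 0.04 (adjusted p = 0.319) and 0.09 ± 0.07 (adjusted p = 0.422), and CDX2 2 was higher in the jejunum of 18 of 25 birds. By feed, CDX2 3 averaged 0.02 ± 0.20 on LPC low, -0.35 ± 0.11 on LPC high, -0.23 ± 0.14 on lysolecithin low, -0.36 ± 0.30 on lysolecithin high and -0.02 ± 0.27 on control feed (SD, n = 5 birds each), and it was higher in the jejunum of 3 of the 5 control birds. Control replicate 2, whose jejunal array is in doubt, was among these 3. Without the birds in doubt CDX1 differed by -0.32 ± 0.04 and CDX2 3 by -0.21 ± 0.06. BCL6 1 averaged 7.49 ± 0.46 in jejunum and 8.05 ± 0.35 in ileum, a difference of -0.55 ± 0.09 (adjusted p = 3.93e-05). BCL6 2 differed by -0.52 ± 0.11 (adjusted p = 0.00168), and both BCL6 probe sets were lower in the jejunum of 21 of 25 birds. By feed, the jejunum minus ileum difference of BCL6 1 averaged -0.41 ± 0.36 on LPC low, -0.92 ± 0.32 on LPC high, -0.57 ± 0.36 on lysolecithin low, -0.75 ± 0.41 on lysolecithin high and -0.12 ± 0.43 on control feed (SD, n = 5 birds each). That of BCL6 2 averaged -0.13 ± 0.90, -0.95 ± 0.38, -0.67 ± 0.55 and -0.71 ± 0.28 on the same supplemented feeds and -0.13 ± 0.43 on control feed. On LPC low the BCL6 2 difference ran from -0.83 to 1.40. The value of 1.40 came from replicate 4, whose arrays are in doubt, and this was the only LPC low bird higher in jejunum. On control feed the difference of each BCL6 probe set was thus smaller than its spread, and each was higher in the jejunum of 2 of the 5 control birds. Control replicate 2, whose jejunal array is in doubt, was among these 2 for both probe sets. Over the 21 birds not in doubt, on all feeds, BCL6 1 differed by -0.64 ± 0.09 and BCL6 2 by -0.67 ± 0.09. Each was lower in the jejunum of 19 of them.

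**Figure D2:**
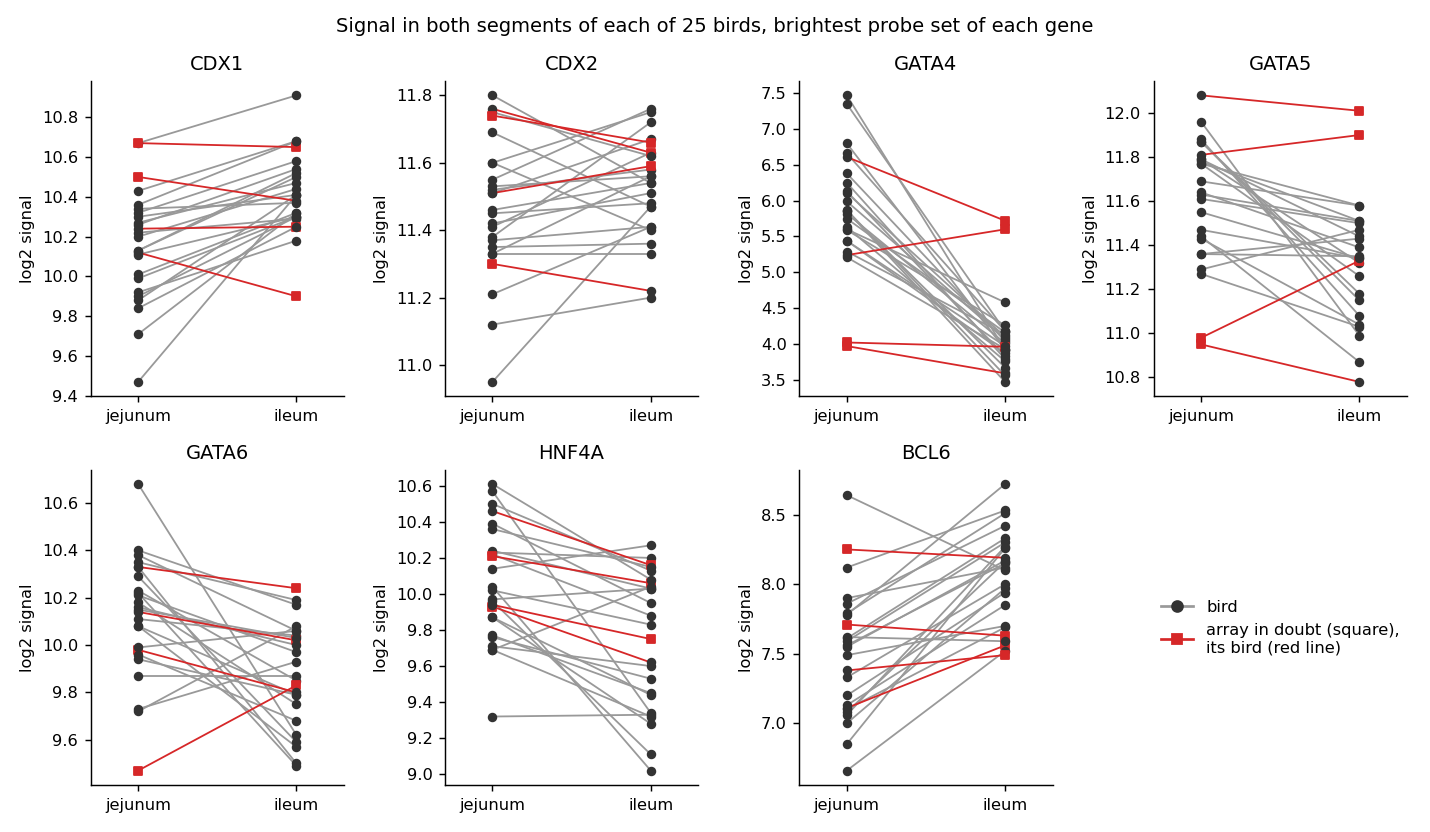
Log2 signal in jejunum (left) and ileum (right) of each of 25 birds, joined by a line, for the brightest probe set of each gene, with birds in doubt in red and their arrays in doubt as squares. GATA4 was higher in the jejunum of 24 of 25 birds, and CDX1 and BCL6 were lower in the jejunum of 22 and 21 birds.

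Altogether, 6 of the 13 member probe sets were higher and 4 lower in jejunum, when 19.7% of all probe sets passed the same test. Without the birds in doubt 9 members passed, when 23.6% of all probe sets did. Of 28 other intestinal transcription factors measured, 3 rose in jejunum and 7 fell. The 6 with the lowest p were the bile acid receptor NR1H4 at -1.05 ± 0.12, the homeobox gene ISX at -0.85 ± 0.11, CREB3L3 at 0.68 ± 0.09, ZFPM1 at 0.48 ± 0.07, KLF5 at -0.76 ± 0.15 and MAF at -0.33 ± 0.08. The median difference of all 28 was -0.04, beside 0.01 over all genes, of which 26.8% passed.

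Enterocyte genes that CDX2, HNF4A or GATA factors bind in mammals moved both ways between the segments. Of 22 measured, 9 were higher and 6 lower in jejunum, with a median of 0.05, when 26.8% of all genes passed. The 6 with the lowest p were CREB3L3, given above, the apolipoproteins APOA4 at 1.62 ± 0.16, APOA1 at 0.48 ± 0.06 and APOB at 0.40 ± 0.05, the chloride exchanger SLC26A3 at -4.19 ± 0.44 and the guanylin receptor GUCY2C at -0.68 ± 0.08. Of 6 ileal bile acid genes 5 fell in jejunum, with NR1H4 the lowest in p. Next were SLC10A2, the bile acid importer, at -4.58 ± 0.69 and FABP6, a bile acid binding protein, at -3.63 ± 0.60. Cell markers moved as well, beside the same 26.8% of all genes. In jejunum 4 of 7 smooth muscle markers rose and 4 of 6 goblet cell markers fell. Of 8 fibroblast markers 2 rose and 1 fell, and of 10 enteroendocrine markers 1 rose and 2 fell. Of 8 enterocyte markers 1 rose and 3 fell, and of 10 T cell markers 1 rose. None of 8 B cell markers passed, and most lay below the median signal of an array. No macrophage, crypt and cycling cell or pancreatic acinar marker passed. The part of these cells in the members' differences was not tested.

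BCL6 averaged lower than control in the jejunum on all 4 supplemented feeds, on both of its 2 probe sets. Only 1 probe set, BCL6 1, passed, and only on the 2 feeds with the higher LPC level. BCL6 1 read 6.85, 7.33, 7.08, 7.13 and 7.61 on LPC high and 7.20, 7.59, 7.06, 7.38 and 7.00 on lysolecithin high. On LPC low it read 7.11, 7.49, 7.10, 7.71 and 6.66, and on lysolecithin low 7.78, 7.55, 7.56, 7.62 and 7.79, against 8.64, 8.25, 7.86, 7.90 and 8.12 on control feed. Every bird on each of the 4 supplemented feeds lay below every control bird. Of all probe sets, 0.784% on LPC low, 1.7% on LPC high, 0.612% on lysolecithin low and 1.83% on lysolecithin high were lower than control with no overlap, and 0.0391% were on all 4. The difference from control was -0.97 ± 0.18 on LPC high (limma with batch, adjusted p = 0.0452), when 0.112% of all probe sets passed. It was -0.91 ± 0.18 on lysolecithin high (adjusted p = 0.0216), when 0.829% did. The difference was -0.94 ± 0.18 on LPC low (adjusted p = 0.18) and -0.49 ± 0.18 on lysolecithin low (adjusted p = 0.392), which did not pass. On LPC low it was close in size to that on LPC high, and LPC high against LPC low passed 0 members in the jejunum. All 4 comparisons share the same 5 control birds, and BCL6 had been singled out earlier on these arrays, so its calls are not independent evidence.

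The 2 BCL6 calls were close to the threshold. On LPC high, leaving out the doubtful arrays gave -0.94 (adjusted p = 0.0651), and the difference was -0.83 with the 5′ minus 3′ index in the fit (adjusted p = 0.358), where 0 of all probe sets passed. On lysolecithin high it was -0.88 (adjusted p = 0.0284) and -0.82 (adjusted p = 0.0606) in the same fits. With only the 2 groups compared it was -1.02 on LPC high (adjusted p = 0.037) and -0.86 on lysolecithin high (adjusted p = 0.102). Leaving out each bird in turn gave -1.07 to -0.85 on LPC high, with the call kept in 1 of 10 fits, and -1.02 to -0.80 on lysolecithin high, with the call kept in 6 of 10. Within the 3 batches the difference was -1.36, -0.80 and -0.75 on LPC high and -1.25, -0.56 and -0.93 on lysolecithin high. The batches held only 2, 1 and 2 birds on LPC high, 1, 2 and 2 on lysolecithin high and 2, 2 and 1 on control feed. BCL6 2 gave -0.23 ± 0.23, -0.36 ± 0.23, -0.27 ± 0.23 and -0.52 ± 0.23 on LPC low, LPC high, lysolecithin low and lysolecithin high, and none passed. Fibroblast markers had a level per array, as a mean of 8 genes, of 6.57 to 8.01 on LPC high and 6.13 to 8.57 on lysolecithin high, against 5.86 to 6.66 on control feed. The 9 macrophage markers averaged 5.21 to 6.66 on LPC high and 4.45 to 6.28 on lysolecithin high, against 4.54 to 5.49 on control feed. The 7 smooth muscle markers averaged 5.42 to 6.53 on LPC high and 4.86 to 6.73 on lysolecithin high, against 4.67 to 5.93 on control feed. The median difference from control of these 3 lists was 0.86, 0.86 and 0.36 on LPC high and 1.41, 0.84 and 0.73 on lysolecithin high (fibroblast, macrophage and smooth muscle), and no gene of them passed in either comparison. On LPC low and lysolecithin low, where BCL6 1 also lay below control, the medians ran at or below 0. They were -0.23, -0.10 and 0 on LPC low and -0.75, -0.26 and -0.05 on lysolecithin low for the same 3 lists. The 8 B cell markers averaged 4.12 to 4.79 on both high feeds and 3.98 to 4.65 on control feed. These levels lay around or below the median signal of an array, 4.57 to 4.70, and whether they stood above background was not tested. The part of these cells in the BCL6 result was not tested.

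In the ileum BCL6 1 read 7.56, 7.70, 7.69, 7.63 and 7.52 on LPC low, against 8.10, 8.19, 8.42, 8.12 and 8.53 on control feed. Every LPC low bird lay below every control bird, as in 0.938% of all probe sets, and the difference of -0.65 ± 0.18 did not pass (adjusted p = 0.133). LPC low replicates 1 and 4, at 7.56 and 7.63, are arrays in doubt, and the remaining LPC low birds read 7.52 to 7.70. The other 3 feeds gave -0.15 ± 0.18, -0.04 ± 0.17 and -0.27 ± 0.18. The jejunal difference from control minus the ileal one was -0.30 ± 0.24, -0.82 ± 0.24, -0.45 ± 0.24 and -0.64 ± 0.24 for BCL6 1 on LPC low, LPC high, lysolecithin low and lysolecithin high. None passed (limma, adjusted p = 0.368 to 0.963), and 0% of all probe sets passed on each feed, so the feed differences are not shown to differ between the segments. BCL6 2 in the ileum read 6.76, 6.46, 6.65, 6.80 and 6.79 on LPC high, against 6.13, 6.05, 6.41, 6.19 and 6.27 on control feed. These did not overlap, as in 1.14% of all probe sets that were higher on LPC high, and ran opposite in sign to BCL6 1, at 0.50 ± 0.21 (adjusted p = 0.439), or 0.16 ± 0.17 with the index in the fit.

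**Figure D3:**
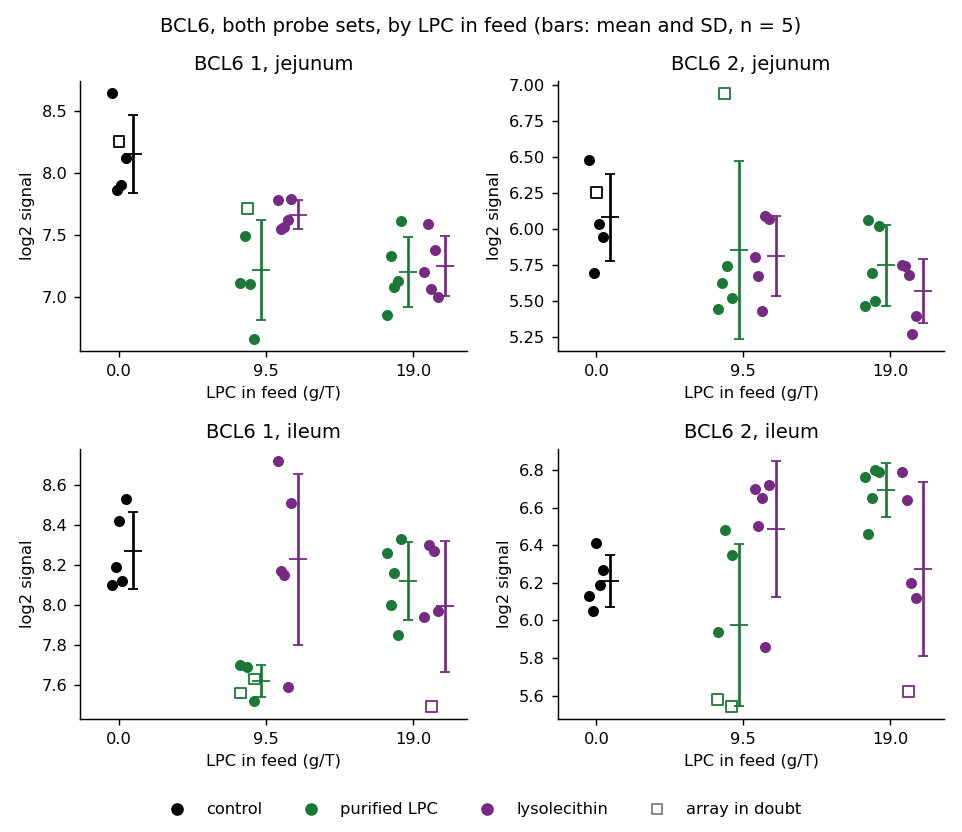
Log2 signal of both BCL6 probe sets against the LPC in the feed (g/T) in jejunum (top) and ileum (bottom), with a point per bird, bars for mean and SD (n = 5), and open squares for arrays in doubt. In the jejunum all BCL6 1 values on supplemented feeds lie below the lowest control value of 7.86.

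CDX2 rose on LPC low in the ileum on 1 of its 3 probe sets. CDX2 2 read 9.94, 10.56, 10.32, 10.05 and 10.44 on LPC low, against 9.43, 9.46, 9.78, 9.53 and 9.48 on control feed. The groups did not overlap, as in 0.586% of all probe sets that were higher on LPC low, and the difference was 0.71 ± 0.10 (adjusted p = 0.0145), or 1.63-fold, when 0.0313% of all probe sets passed. Leaving out the arrays in doubt, which keeps 3 LPC low birds, gave 0.87 ± 0.11 (adjusted p = 0.000666), and the difference was 0.65 ± 0.09 with the index in the fit (adjusted p = 0.00389). The call was lost with only the 2 groups compared (adjusted p = 0.194) and in a joint fit of both segments with the bird as a random block (adjusted p = 0.0507), where the difference was 0.70 in each. It was also lost in 3 of the 10 fits that left out 1 bird, without LPC low replicate 2, LPC low replicate 5 or control replicate 4 (adjusted p up to 0.0749). Within the 3 batches the difference was 0.49, 0.79 and 0.77, from 1, 2 and 2 LPC low birds against 2, 2 and 1 control birds. Replicate 1, an array in doubt, was the only LPC low bird of the first batch. The other feeds gave 0.50 ± 0.10 on LPC high (adjusted p = 0.162), 0.42 ± 0.10 on lysolecithin low (adjusted p = 0.0502) and 0.38 ± 0.10 on lysolecithin high (adjusted p = 0.176). LPC high, from 9.93, and lysolecithin high, from 9.85, also lay wholly above the highest control value of 9.78. Of all probe sets, 1.14% and 0.521% were higher than control with no overlap on these feeds. Lysolecithin low, from 9.73, overlapped with control, and all feeds were compared with the same control birds. CDX2 2 also passed the F-test for any feed in the ileum (adjusted p = 0.0399).

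The other CDX2 probe sets did not pass. In the ileum CDX2 1 gave 0.28 ± 0.08, 0.30 ± 0.08, 0.31 ± 0.08 and 0.22 ± 0.08 on the 4 feeds, and all 5 birds of each feed lay above every control bird. These 4 comparisons share the same 5 control birds. Of all probe sets, 1.74% on lysolecithin low and 0.521% on lysolecithin high were higher than control with no overlap, and 0.00782% were on all 4 feeds. CDX2 3 gave -0.07 ± 0.13, 0.05 ± 0.13, 0.08 ± 0.13 and 0.02 ± 0.13. Over 50 arrays CDX2 2 correlated with CDX2 1 at r = 0.71 and with CDX2 3 at r = -0.21. In the jejunum CDX2 2 on LPC low had a difference of 0.80 ± 0.17 with no overlap, as in 0.719% of all probe sets, and it did not pass (adjusted p = 0.207). CDX2 1 there ran from 11.69 to 11.80, against 11.12 to 11.60 on control feed, also with no overlap and no call. Fibroblast markers in the ileum ranged from 5.65 to 7.07 on LPC low and 6.71 to 7.47 on control feed, and enterocyte markers from 12.50 to 12.68 and 12.22 to 12.63, and their part in the CDX2 result was not tested.

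HNF4A differences from control were positive in most comparisons. None passed in the main fit, which was limma with batch on all arrays of a segment at equal weight. In the ileum HNF4A 1 read 10.16, 10.13, 10.15, 10.06 and 9.95 on LPC low, against 9.60, 9.62, 9.45, 9.33 and 9.34 on control feed. The groups did not overlap, as in 0.586% of all probe sets that were higher on LPC low. LPC low replicates 1 and 4, at 10.16 and 10.06, are arrays in doubt. The difference was 0.66 ± 0.17 (adjusted p = 0.124), and HNF4A 2 and HNF4A 3 gave 0.65 ± 0.30 (adjusted p = 0.386) and 0.88 ± 0.22 (adjusted p = 0.122). HNF4A 2 and HNF4A 3 passed on the 3 LPC low birds not in doubt, at 1.15 ± 0.28 (adjusted p = 0.0216) and 1.15 ± 0.24 (adjusted p = 0.00827), when 5.98% of all probe sets did. In the jejunum the 3 probe sets gave 0.51 ± 0.17, 1.09 ± 0.25 and 0.67 ± 0.17 on LPC low and 0.21 ± 0.17, 0.88 ± 0.25 and 0.54 ± 0.17 on LPC high, and none passed. On LPC low HNF4A 2 ran from 7.16 to 8.28 and HNF4A 3 from 6.80 to 7.24. Control ran from 6.10 to 7.07 and from 6.00 to 6.74. Neither overlapped, as in 0.719% of all probe sets that were higher on LPC low there. HNF4A 2 on LPC high, from 7.36, also lay above control, and the share of all probe sets was not computed. With the index in the fit HNF4A 2 on LPC high was 0.21 ± 0.24. On lysolecithin the jejunal values were 0.17, 0.47 and 0.24 at the low level and 0.02, 0.44 and 0.22 at the high level. In the ileum they were 0.52, 0.65 and 0.69 on LPC high, -0.07, 0.01 and 0.15 on lysolecithin low and 0.36, 0.31 and 0.52 on lysolecithin high.

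**Figure D4:**
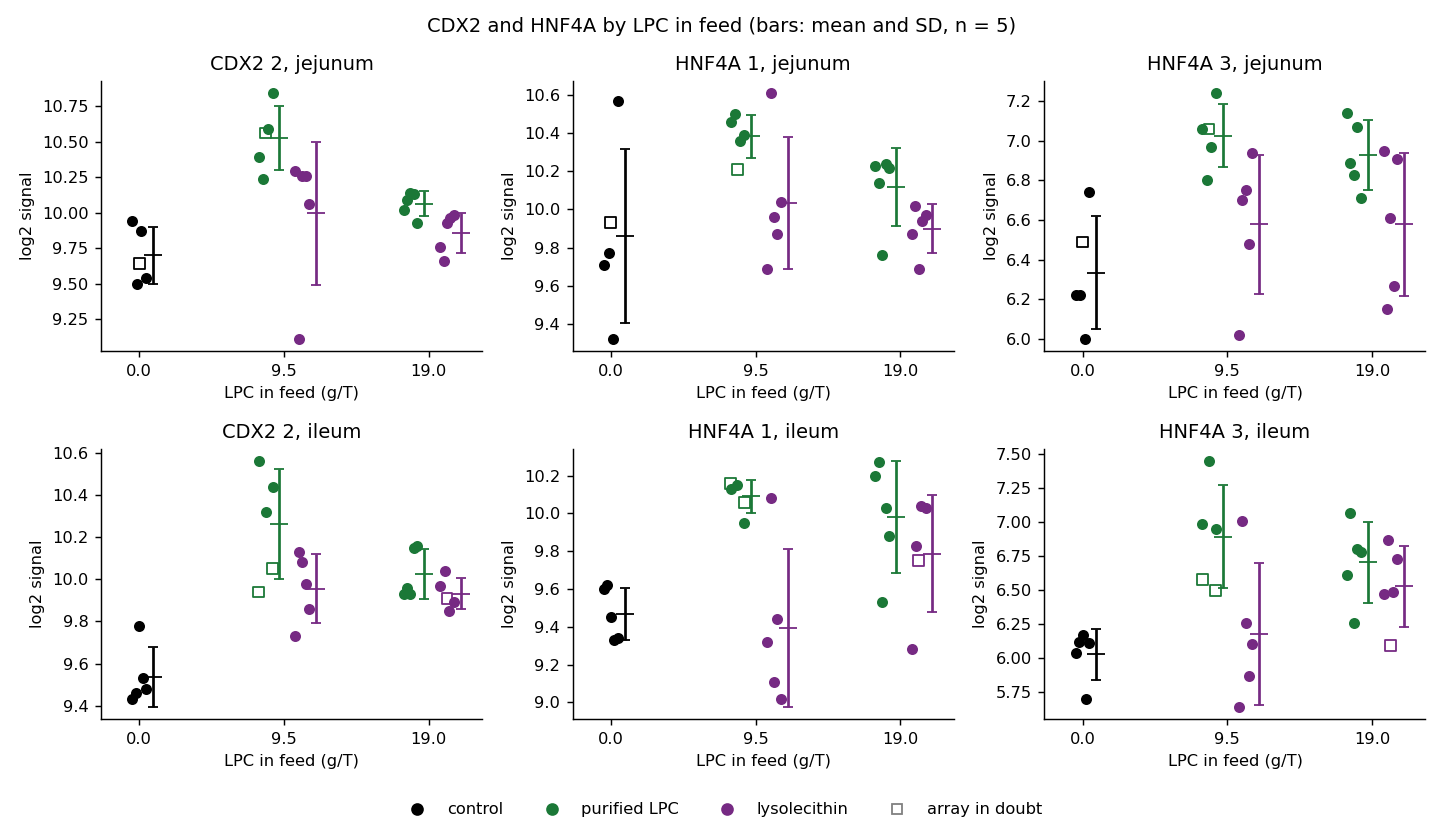
Log2 signal of CDX2 2, HNF4A 1 and HNF4A 3 against the LPC in the feed (g/T) in jejunum (top) and ileum (bottom), with a point per bird, bars for mean and SD (n = 5), and open squares for arrays in doubt. In the ileum all CDX2 2 values on LPC low, LPC high and lysolecithin high lie above the highest control value of 9.78.

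The GATA factors and CDX1 did not pass on any feed. GATA4 in the jejunum gave 0.11 ± 0.47, 0.90 ± 0.47, 0.73 ± 0.46 and 0.99 ± 0.47 on LPC low, LPC high, lysolecithin low and lysolecithin high. The jejunal segment score also differed between feeds, as given above, and its part in these differences was not tested. Control replicate 2, an array in doubt at 3.97, was the lowest control value, and without the arrays in doubt the differences were 0.21, 0.57, 0.44 and 0.70. With the index in the fit they were 0.46, 1.64, 1.18 and 1.45, and none passed (adjusted p = 0.133 to 0.985). In the ileum GATA4 gave 0.50 ± 0.32, 0.18 ± 0.32, 0.36 ± 0.32 and 0.66 ± 0.32 on the 4 feeds. Without the arrays in doubt, which hold the values of 5.60 on LPC low and 5.72 on lysolecithin high, these were 0.11, 0.23, 0.36 and 0.30. GATA5 2 ranged from 0.18 to 0.42, GATA5 1 from 0.00 to 0.35, GATA6 from -0.21 to 0.20 and CDX1 from -0.15 to 0.26 over the same 4 feeds in both segments.

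**Figure D5:**
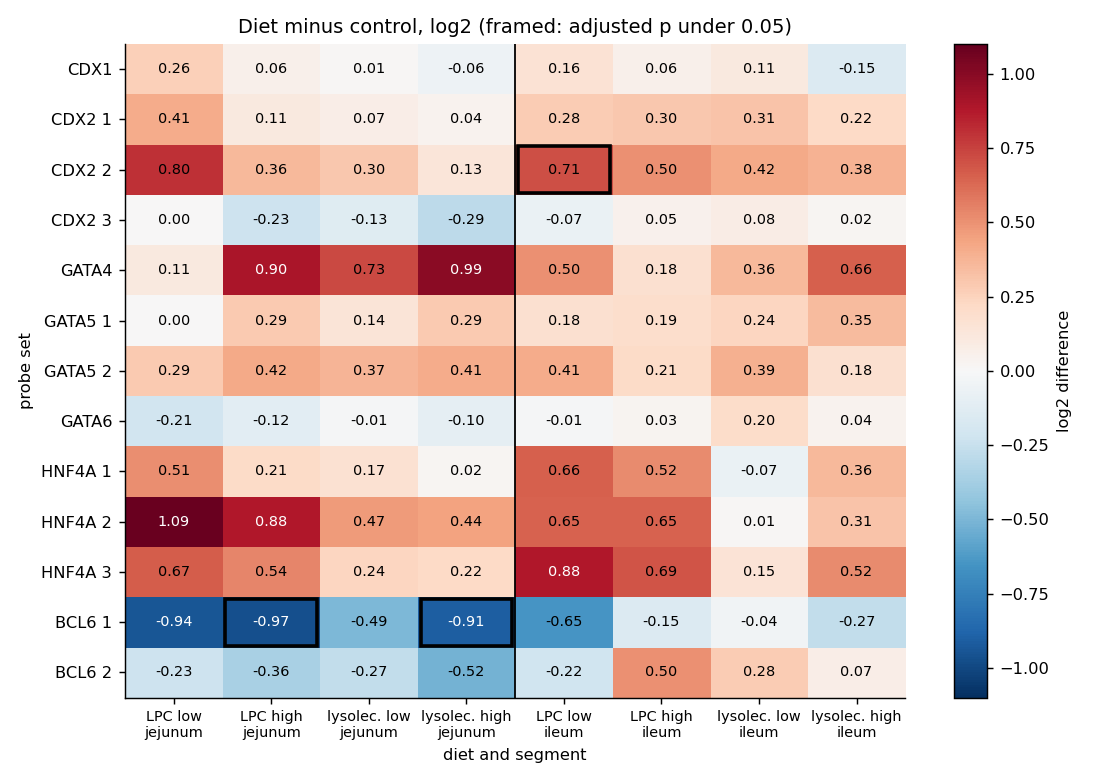
Difference from control feed (log2) of the 13 member probe sets (rows) on 4 feeds in jejunum and ileum (columns), with a frame where the adjusted p was under 0.05. The 3 framed values are BCL6 1 in the jejunum on LPC high and lysolecithin high and CDX2 2 in the ileum on LPC low.

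In each of the 3 comparisons with control where a member passed, it was 1 of 13 probe sets, or 7.69%. The share of all probe sets that passed was 0.112% on LPC high and 0.829% on lysolecithin high in the jejunum and 0.0313% on LPC low in the ileum. No member passed on LPC low (0.00261% of all probe sets) or lysolecithin low (0.0495%) in the jejunum, or on LPC high (0%), lysolecithin low (0.875%) or lysolecithin high (0.216%) in the ileum. At an unadjusted p under 0.05 there were 6, 6, 1 and 5 members on LPC low, LPC high, lysolecithin low and lysolecithin high in the jejunum, when 8.56%, 10.9%, 8.92% and 17.8% of all probe sets were. In the ileum there were 6, 6, 2 and 4 members, when 12.1%, 9.97%, 14.2% and 8.96% of all probe sets were. As shares of the 13 members these were 46.2%, 46.2%, 7.69% and 38.5% in the jejunum and 46.2%, 46.2%, 15.4% and 30.8% in the ileum. Probe sets of 1 gene share a transcript, and the members were chosen with earlier results known, so these shares are a description.

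The F-test for any feed passed 0 members in the jejunum (0.13% of all probe sets), where BCL6 1 had an adjusted p of 0.0577, and 1 in the ileum (0.138%). At an unadjusted p under 0.05 there were 7 members in the jejunum and 6 in the ileum, when 13.8% and 14.6% of all probe sets were. No member's response passed the F-test for a difference between the segments (0.00521% of all), where CDX2 1 had the lowest p of 0.0063. At an unadjusted p under 0.05 there were 4, when 10.3% of all probe sets were.

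At matched LPC, no member differed between the products past the threshold in the main fit with all arrays at equal weight. Counts under other fits, array weights among them, are given at the end. Lysolecithin low against LPC low passed 0 members in the jejunum (0% of all probe sets) and 0 in the ileum (0.0365%). At an unadjusted p under 0.05 there were 5 and 6 members, when 5.21% and 12.6% of all probe sets were. Without the arrays in doubt, which keeps 3 LPC low birds, 3 members passed in the ileum, when 2.63% of all probe sets did. These were CDX2 2 at -0.45 ± 0.11 (adjusted p = 0.0335), HNF4A 2 at -1.14 ± 0.28 (adjusted p = 0.0403) and HNF4A 3 at -1.0 ± 0.24 (adjusted p = 0.0333), lower on lysolecithin low. With all arrays their differences were -0.29 ± 0.10, -0.64 ± 0.30 and -0.74 ± 0.22. With all arrays, the lowest p was that of HNF4A 1 in the ileum, which read 9.32, 10.08, 9.11, 9.44 and 9.02 on lysolecithin low, against the LPC low values above. Only replicate 2 reached the LPC low range, and the difference was -0.74 ± 0.17 with a 95% interval of -1.09 to -0.38 (adjusted p = 0.0776). Lysolecithin high against LPC high passed 0 members in each segment, with 0 at an unadjusted p under 0.05, when 6.11% of all probe sets in the jejunum and 3.48% in the ileum were, and 0% of all passed in both. Between levels, LPC high against LPC low passed 0 members in the jejunum (3 unadjusted, beside 5.96% of all probe sets) and the ileum (2 unadjusted, beside 10.4%), and 0% of all probe sets passed in both. Lysolecithin high against lysolecithin low passed 0 in the jejunum, when 0.00261% of all did, and 0 in the ileum, when 0.00521% did. Unadjusted there were 1 and 2 members, beside 13.5% and 9.73% of all probe sets.

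The other genes of these pathways mostly did not pass between feeds. Of 28 other transcription factors and 11 BCL6 corepressors, none passed on any feed in either segment with limma. Only 0% to 1.31% of all genes passed per comparison, so this is no result about these lists. At an unadjusted p under 0.05 there were 0 to 5 and 0 to 4 per comparison, when 8.56% to 17.8% of all probe sets were. The 5 were on lysolecithin high in the jejunum (17.8% of all probe sets). The 4 were on LPC high in the ileum (9.97%). Of the 22 enterocyte genes, 2 brush border proteases fell on lysolecithin low in the ileum, DPP4 by 0.61 ± 0.14 (adjusted p = 0.0436) and MEP1A by 0.76 ± 0.18 (adjusted p = 0.0446), when 1.31% of all genes passed, with a list median of 0.18 beside 0.01 over all genes. Among cell markers, in the same comparison the fibroblast gene VIM fell by 1.51 ± 0.29 (adjusted p = 0.0175). The mucin gene MUC2 fell on lysolecithin high by 1.96 ± 0.47 in the jejunum (adjusted p = 0.0495), when 0.715% of all genes passed, and by 1.74 ± 0.34 in the ileum (adjusted p = 0.03), when 0.146% did. It was the only 1 of 6 goblet cell markers to pass in each. The median difference of that list was -0.25 in the jejunum and -0.02 in the ileum, so the list did not fall with MUC2 in the ileum.

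Other genes followed the members across the 50 arrays of both segments, so these correlations also carry the difference between segments. The correlations are a description, over 8395 genes for GATA4 and 8394 for the others, and arrays share birds and segments. These were genes whose brightest probe set had a mean signal of at least 5. GATA4 was most like GJB1, a gap junction gene, at r = 0.94, then TLCD4 and VAT1 at 0.92 each. Within the 25 arrays of a segment GJB1 had r = 0.81 in jejunum and 0.84 in ileum, where it ranked 17 and 11 among these 8395 genes. TLCD4 had 0.87 and 0.76, at ranks 2 and 35. BCL6 1 was most like ZNF555 and SOCS3, a feedback inhibitor of cytokine signalling, at 0.83 each and NFKBIZ at 0.82. In jejunum and ileum ZNF555 had 0.77 and 0.74 (ranks 8 and 6), SOCS3 0.76 and 0.70 (ranks 10 and 13) and NFKBIZ 0.83 and 0.67 (ranks 1 and 25). GATA5 1 was most like TJAP1 at 0.85, which had 0.81 in jejunum and 0.83 in ileum (ranks 4 and 3). CDX1 was most like AGR2, a secretory cell gene, at 0.80, with 0.82 in jejunum and 0.65 in ileum (ranks 6 and 16). GATA6 was most like MECOM at 0.73, with 0.79 in jejunum and 0.40 in ileum (ranks 3 and 215). CDX2 1 and HNF4A 1 had weaker matches. CCL19 had 0.63 with CDX2 1, or 0.62 in jejunum and 0.64 in ileum (ranks 68 and 19), and PDK4 had 0.60 with HNF4A 1, or 0.54 and 0.51 (ranks 6 and 240).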

How the data were processed

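Arrays of 25 birds and 2 segments were used. Per the submitters' processing notes the authors made the deposited log2 values with RMA and name limma, with versions not given in the sources used here. Of 38535 probe sets, 153 controls were left out and 38382 tested with no filter on dim signal. All tests used limma 3.58.1 under R 4.3.3, with Benjamini-Hochberg adjustment over all probe sets and a threshold of 0.05. Feeds were compared within a segment with batch as a term, and segments with the bird as a block. The bird numbers in the titles pair the arrays: deviations of the same bird correlated at a median of 0.31 (0.01 to 0.63), against -0.01 between birds. Every probe set of a member is reported, the brightest stands for its gene, list genes are named by lowest p, and the 3 most correlated genes are taken per member. The members and lists were chosen with earlier results of these data known, and contrasts of each feed's effect between segments were added after the data were seen. The fits were tested on simulated data. The number of arrays limits the precision.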

Additional observations from a re-analysis of the deposited data

Results flagged for a closer look

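Each member probe set was examined for single birds far from the other 4 of their feed and segment. Of 130 groups, 14 held such a value, 4 of them on arrays in doubt, and chance flags about 1 in 20 groups. Lysolecithin low replicate 2 in the jejunum stood low in CDX1 at 9.47, in CDX2 1 at 10.95 and in CDX2 2 at 9.11. LPC high replicate 3 in the jejunum stood high in GATA4 at 7.47 and low in HNF4A 1 at 9.76. On arrays in doubt, GATA4 read 5.60 in LPC low replicate 1 and 5.72 in lysolecithin high replicate 4 of the ileum, and LPC low replicate 4 of the jejunum read 9.47 in GATA6 and 6.94 in BCL6 2. Lysolecithin low replicate 4 of the ileum read 5.86 in BCL6 2. On control feed, replicate 4 of the ileum read 10.58 in CDX1 and 5.70 in HNF4A 3, replicate 3 of the ileum 9.78 in CDX2 2, and replicate 5 of the jejunum 6.96 in CDX2 3.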

How the results depend on the processing

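The count of 10 members between segments stayed at 9 or 10 under all alternatives run, with 9 for the fit with no replicate block and 9 to 10 when each bird was left out. Counts of called members between feeds rested on 1 or 2 probe sets and moved more. With array weights, 2 members passed on LPC low and 2 on LPC high in the jejunum and 1 by the F-test there, and in the ileum 3 passed on LPC low, 1 on LPC high, 1 on lysolecithin low, 1 for lysolecithin low against LPC low and 3 by the F-test. In a joint fit of the segments with the bird as a random replicate block, 2 passed on LPC low and 3 by the F-test in the jejunum and 0 on LPC low in the ileum. Without the arrays in doubt, 0 passed on LPC high in the jejunum, and in the ileum 3 on LPC low, 1 on lysolecithin low, 3 for lysolecithin low against LPC low and 2 by the F-test. With the index, 0 passed on LPC high and 0 on lysolecithin high in the jejunum and 2 on lysolecithin low in the ileum. With only the 2 groups compared, 0 passed on lysolecithin high in the jejunum and 0 on LPC low in the ileum. Among brighter probe sets 1 passed by the F-test in the jejunum and 1 on lysolecithin low in the ileum, where GATA4 fell under the filter and has no value. Batch as a random block gave 0 on LPC high in the jejunum and 0 by the F-test in the ileum, and no batch term gave 0 there. Leaving out each bird gave 0 to 1 in the jejunum on LPC high, on lysolecithin high and by the F-test, and in the ileum 0 to 2 on LPC low, 0 to 1 on lysolecithin low, 0 to 2 for lysolecithin low against LPC low and 0 to 3 by the F-test. BCL6 1 kept its call in 1 of 10 such fits on LPC high (adjusted p = 0.048 to 0.19) and 6 of 10 on lysolecithin high (0.0112 to 0.0857), and CDX2 2 in 7 of 10 on LPC low (0.00296 to 0.0749). HNF4A 3 kept its segment call in 19 of 25. BCL6 2 on LPC low in the ileum was 0.07 without the arrays in doubt, against -0.22 with them, and HNF4A 2 on lysolecithin high in the ileum was -0.22 with the index, against 0.31 without it. These were the only 2 changes of sign among the 82 member values larger than their SE, over 1781 refitted values. Among the 35 member values smaller than their SE, the sign changed in 68 of 711 refitted values. No called value changed sign. The cause of these shifts was not tested.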
